A study of Mus musculus with 6 samples.

Results

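The genes described here build cilia and flagella, and 117 probe sets of the array, for 73 genes, stood for them. They were every probe set whose single annotated symbol begins with Cfap, Bbs, Dnah, Dnaic, Tekt or Rsph, or is Ift with a number, Kif3a, Kif3b or Kif7. The array held 45037 probe sets apart from its controls, of which 34945 carried a single symbol, for 18193 genes. RNA abundance was measured in the AtT-20 line, which derives from a corticotroph tumour of the mouse pituitary. Cultures received siRNA against Dnmt1 (siDNMT1) or a non-targeting siRNA (siNT) at 20 nM, given again and again until RNA was taken on day 8. Each treatment was carried out in 3 independent repeats with 1 array per culture, so there were 3 arrays per group, and the arrays of a repeat share its number. All cultures were the same line, and the siNT cultures differ from the siDNMT1 cultures in the siRNA alone, per the labels. No untreated cells were among the samples analysed here.

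A cilium is a membrane-covered projection on a core of microtubule doublets, the axoneme. Primary cilia, carried singly by many cell types, do not beat and serve as signalling antennae, above all for hedgehog signals. Motile cilia and sperm flagella add dynein arms, radial spokes and tektin filaments, so many of the genes below are best known from airway epithelium, ependyma and testis. Intraflagellar transport (IFT) builds both kinds: kinesin-2 moves IFT-B and IFT-A particles to the tip, and the BBSome, a coat complex of Bbs proteins, carries membrane proteins. Dnmt1, the enzyme that maintains DNA methylation through cell division, was the target of the siRNA.

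Dnmt1 was reduced and still present. On its brightest probe set the siDNMT1 arrays of repeats 1, 2 and 3 had scaled signals of 214, 142 and 301 and the siNT arrays 541, 701 and 619, which is 39.6%, 20.2% and 48.6% of the paired control. The deposited signals of the arrays differed in scale, with median signals of 19.8 to 36.3, and every signal below was scaled so that all arrays have the same median log2 value. The corticotroph identity of the line was visible: 6 of 7 corticotroph markers lay above background on all 3 siNT arrays, the vasopressin receptor gene Avpr1b being the exception. The 3 arrays per group limit the precision of every value. RNA of whole cultures was measured, so fewer cells with a transcript and less of it in each cell cannot be told apart.

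Whether a member was expressed at all was read against an empirical background. The 80 probe sets for chemosensory receptors, 71 genes of olfactory and vomeronasal neurons, had median scaled signals of 5.77 to 9.99 on the 6 arrays. The 95th percentile of their signals was taken as the background level of an array. It was 43.2, 42.4 and 42.8 on siNT arrays 1 to 3 and 33.9, 39.0 and 48.6 on siDNMT1 arrays 1 to 3. A gene was counted as above background in a group when its brightest probe set exceeded that level on all 3 arrays.

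Under this rule 27 of the 73 genes (37.0%) were above background in the siNT cultures, beside 8781 of 18122 genes (48.5%) on the array, members included and receptors left out. In the siDNMT1 cultures 29 members (39.7%) were above it, and 25 were so in both groups. Bbs4 and Ift80 passed in siNT alone, and Cfap126, Cfap300, Dnah8 and Dnaic1 in siDNMT1 alone. On no siNT array did 34 of the 73 genes exceed the level. These lists rest on a level that itself differed between arrays, and no difference between groups is read from them.

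IFT, kinesin and Bbs genes serve primary and motile cilia alike. All 3 IFT-A genes among the members, which encode parts of the particle for the return journey, were above background in siNT. So were 8 of 11 IFT-B members, all but Ift74, Ift81 and Ift88. IFT genes with other symbols are not members. Of 21 such IFT and IFT motor genes on the array 17 were above background, but the IFT-A genes Wdr35 and Wdr19 exceeded it on 1 and 0 siNT arrays. Ift46, an IFT-B gene, had scaled signals of 272, 398 and 338 on siNT arrays 1 to 3. Ift140, of IFT-A, had 138, 154 and 163. Of the 3 kinesin genes only Kif3b, a motor subunit of kinesin-2, was above background on all 3 siNT arrays. Its partner Kif3a had 41.6, 40.8 and 68.6 on its brightest probe set, below the level on 2 of the 3, although another Kif3a probe set was above it on all 3, at 45.7, 44.2 and 66.4. Among the 8 Bbs genes the BBSome subunit genes Bbs1, Bbs4, Bbs5 and Bbs9 were above background, and Bbs2, Bbs7 and the chaperonin-like Bbs10 and Bbs12 were not.

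Dynein, spoke and tektin genes belong to the motile axoneme. None of the 5 tektin genes was above it on any siNT array. Of 12 axonemal dynein genes, Dnah1, a heavy chain of the inner arm, and Dnaic2, an intermediate chain of the outer arm, passed, and 8 exceeded the level on no siNT array. Of 6 radial spoke genes, Rsph1 and Rsph9, both of the spoke head, passed. Of 25 Cfap genes, named only for a link to cilia or flagella, 7 passed: Cfap20, Cfap20dc, Cfap298, Cfap36, Cfap410, Cfap57 and Cfap65. Cfap20, a protein of the junction within doublets, had siNT signals of 392, 394 and 421, and Cfap298, needed for dynein arm assembly, had 657, 880 and 671. A probe set's brightness also depends on its own oligonucleotides, so these signals order no gene against another.

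**Figure D1:**
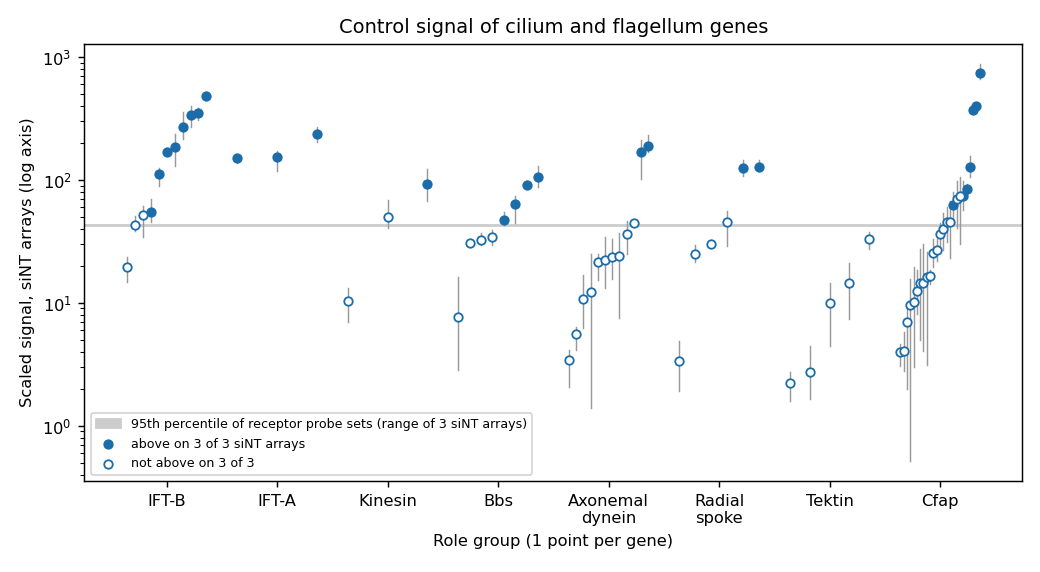
Scaled signal of the brightest probe set of each of the 73 genes in the siNT cultures, on a log axis, grouped by role; points are means of 3 arrays, lines their range, and the grey band the background level from chemosensory receptor probe sets, above which filled points lay on all 3 siNT arrays. All 3 IFT-A members and 8 of 11 IFT-B members were above background on all 3 siNT arrays, against 2 of 12 axonemal dynein genes and none of the 5 tektin genes. IFT genes without an Ift-number symbol are not shown.

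The start sites of the genes offer a property that the choice of members did not use. RefSeq promoter windows of assembly GRCm38.p6, from 250 bases before the transcript start to 50 after it, were matched for 62 of the 73 genes. The X-box is the motif bound by RFX factors, which drive ciliary genes, and was searched on both strands as GTNNCC followed, after any 3 bases, by GNNAC, where N is any base. It occurred in 16 of the 62 genes (25.8%), against 5.26% of the 27025 genes in the table, and by window in 16 of 68 (23.5%) against 4.62% of all 32851. In 14 of the 16 genes a match began within 125 bases before the start or after it. A shorter motif, GTTGCC, which a match of the longer one can contain, occurred in 30.6% of the member genes and 14.1% of all genes. These shares describe letters in a window, and a match is not shown to be a binding site. The matches that follow, with the X-box in capitals and 8 bases on each side, are shown because they belong to genes of different roles, both above and not above background in siNT. Ift22 and Ift57 are IFT-B genes on chr5:136908079-136908108, with a further Ift22 match at chr5:136908109-136908138, and chr16:49699199-49699228, both on the plus strand. Cfap298 at chr16:90935016-90935045, Cfap20dc at chr14:8666371-8666400, Bbs7 at chr3:36613489-36613518 and Cfap206 at chr4:34730208-34730237 lie on the minus strand, and every sequence is given 5′ to 3′ along its gene.
Ift22, first match: ctgtcaggGTTTCCTGGGCTACtgcgcagc
Ift22, second match: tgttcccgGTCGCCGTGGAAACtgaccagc
Ift57: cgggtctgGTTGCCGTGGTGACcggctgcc
Cfap298: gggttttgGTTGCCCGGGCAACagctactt
Cfap20dc: gcccctcaGTTGCCTGGGCAACggctcagc
Bbs7: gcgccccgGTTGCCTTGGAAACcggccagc
Cfap206: cgcgttccGTTTCCACGGTTACgcgactgc

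The matches of Ift57, Cfap298, Cfap20dc and Bbs7 begin with the shorter motif. Of the genes shown, Ift22, Ift57, Cfap298 and Cfap20dc were above background in siNT, and Bbs7 and Cfap206 were not. Among all matched members the motif was found in 7 of 23 genes above background (30.4%) and 9 of 39 not above it (23.1%). By role, 3 of 8 Bbs genes, 2 of 5 tektin genes, 6 of 19 Cfap genes, 2 of 9 IFT-B genes, 2 of 12 axonemal dynein genes and 1 of 4 radial spoke genes held it. Neither of the 2 matched IFT-A genes and none of the 3 kinesin genes did.

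The windows were also counted for CpG dinucleotides, the kind of site at which Dnmt1 maintains methylation. No methylation was measured here, so whether any of these CpG were methylated is not known. The median was 16 CpG per 300 bases over the members and 8 over all genes of the table. Members above background in siNT had a median of 22 and the others 13, with lowest counts of 11 and 1. Bbs genes had a median of 22.5 and IFT-B genes 20, while axonemal dynein genes had 11 and tektin genes 12. The counts ran from 1 in Dnah12, an inner arm heavy chain gene, to 40 in Cfap410, a basal body gene. Kif7 had 31, and 11.7% of all genes had at least as many.

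**Figure D2:**
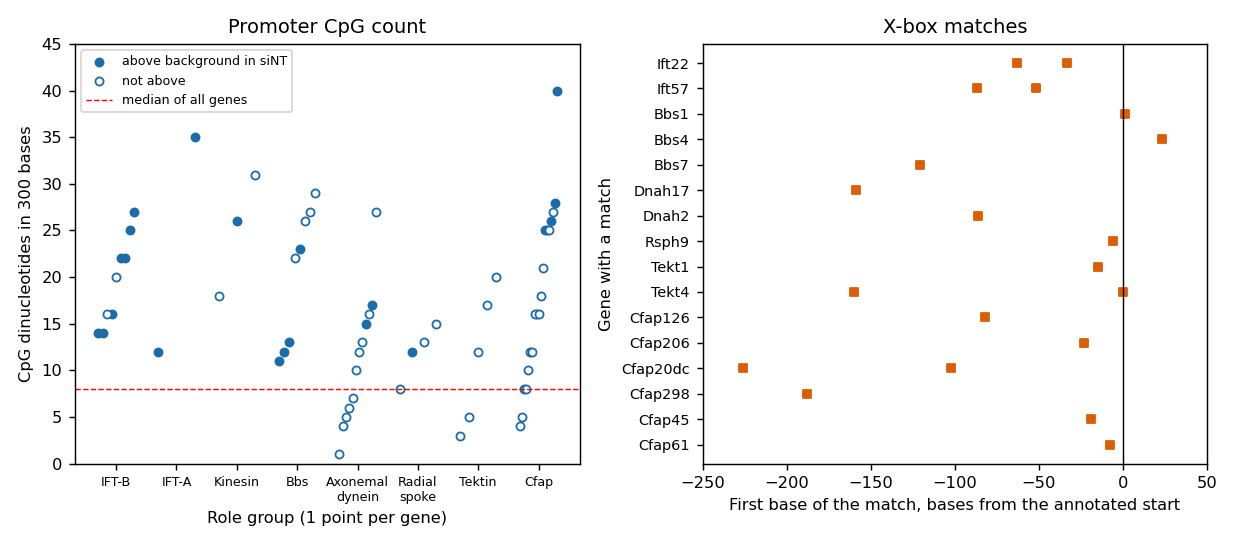
Left, CpG dinucleotides per 300-base promoter window of the 62 matched member genes by role, filled where the gene was above background in siNT, with the median of all genes as a dashed line; right, the position of each X-box match relative to the annotated start, in bases, for the 16 genes that hold one. The members' median was 16, against 8 over all genes of the table, and 16 of the 62 genes held the motif.

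The comparison of siDNMT1 with siNT asks which of these transcripts became more or less abundant when Dnmt1 was reduced. Cfap65 and Kif7 drew attention to this gene set because they were high in siDNMT1 in this same contrast, so their values are a description and carry no test. A difference below is siDNMT1 minus siNT in log2(scaled signal + 5.29), where 5.29 is a pseudocount that makes differences of dim probe sets smaller. Of the 117 probe sets, 75, for 55 genes, had a mean scaled signal of at least 16.8, the 40th percentile of the array, and entered the fit. The other 42 were too dim, and 18 genes had no probe set in the fit. Unless stated otherwise, an SE comes from the fit without the repeats as a block, and does not measure the spread of the differences in the repeats.

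Cfap65 encodes a protein that mouse and human sperm need to form a normal flagellum. Its single probe set had scaled signals of 217, 324 and 184 on siDNMT1 arrays 1 to 3 and of 72.7, 87.7 and 91.9 on siNT arrays 1 to 3. Every siDNMT1 array was above every siNT array, and all 6 were above the background level. The means were 242 ± 73.1 and 84.1 ± 10.1 (SD, n = 3), a difference of 1.43 (SE 0.23), with 1.51, 1.82 and 0.96 in repeats 1, 2 and 3. The difference was smallest in repeat 3, which kept the most Dnmt1 signal, and largest in repeat 2, which kept the least. Kif7 did not share this order, with its smallest difference, 0.73, in repeat 2, and 3 repeats allow no test of such a relation. The nearest gene on the one side, Ihh, encoding a hedgehog ligand, had overlapping groups and a difference of -0.28 (SE 0.24). The further neighbours measured, Cdk5r2, Cryba2, Nhej1, Slc23a3 and Cnppd1, had differences of -0.26 to 0.18. Of these, Cdk5r2 had groups without overlap, at 244, 274 and 228 in siDNMT1 against 226, 217 and 212 in siNT, and the others overlapped.

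Kif7 encodes a kinesin of the ciliary tip that holds back and relays hedgehog signals through Gli proteins. Its signals were 40.8, 25.5 and 25.6 in siDNMT1 and 11.0, 13.3 and 6.92 in siNT. The groups did not overlap, but no siNT array and only 1 siDNMT1 array, that of repeat 1, exceeded the background level. The means were 30.6 ± 8.77 and 10.4 ± 3.23 (SD, n = 3), the difference was 1.19 (SE 0.39), and the repeats gave 1.5, 0.73 and 1.34. Since the siNT signals lay within those of the receptor probe sets, the difference, on the scale with the pseudocount, is not a fold change of the transcript. The neighbours Ticrr and Pex11a had overlapping groups, with differences of -0.27 (SE 0.27) and 0.05 (SE 0.19). The bases before the Kif7 gene are shown because the window is rich in CpG, given in capitals. They run over chr7:79715773-79715957 of GRCm38.p6 on the minus strand, the bases of the window that lie outside the annotated gene, and hold 16 CpG in 185 bases.
Kif7: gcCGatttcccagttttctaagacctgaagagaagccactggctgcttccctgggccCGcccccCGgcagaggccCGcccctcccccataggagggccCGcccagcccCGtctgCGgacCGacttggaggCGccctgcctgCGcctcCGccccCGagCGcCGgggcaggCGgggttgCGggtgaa

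**Figure D3:**
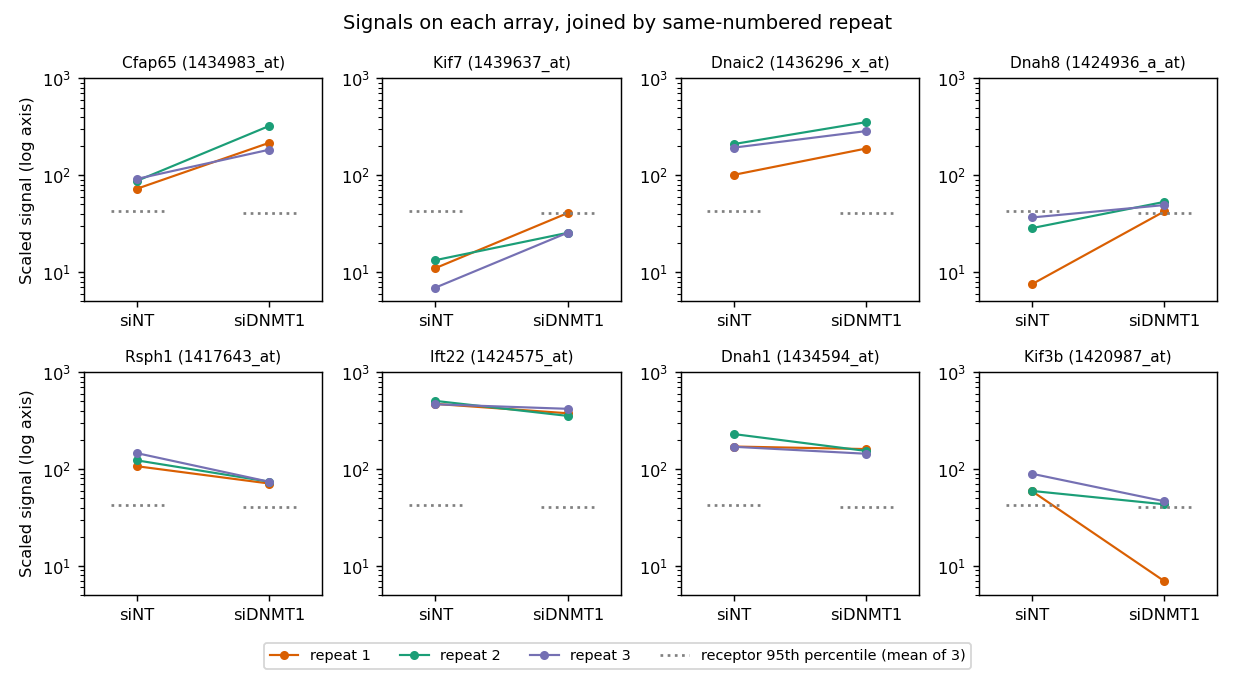
Scaled signal on each of the 6 arrays, on a log axis, for member probe sets named in the text, with lines joining the siNT and siDNMT1 arrays of a repeat and dotted lines at the mean background level of a group. The Cfap65 signals are 184 to 324 in siDNMT1 and 72.7 to 91.9 in siNT, while the siNT signals of Kif7, 6.92 to 13.3, lie below the background level.

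The other kinesin genes gave no such picture. Kif3b had siDNMT1 signals of 79.4, 63.5 and 90.4 and siNT signals of 85.5, 68.0 and 123 on its brightest probe set, a difference of -0.21 (SE 0.25) with overlapping groups. A further Kif3b probe set had 6.95, 43.3 and 46.5 against 59.1, 59.5 and 89.5, a difference of -1.23 (SE 0.48) without overlap in which the siDNMT1 array of repeat 1 was far below the others. Another was at 0.00, so the probe sets of this gene did not measure alike. Kif3a had 55.0, 54.6 and 43.4 against 41.6, 40.8 and 68.6, a difference of 0.05 (SE 0.26).

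Values of the IFT genes lay close together. Over 16 IFT-B probe sets the differences ran from -0.49 to 0.37 with a median of -0.09, and over 4 IFT-A probe sets from -0.11 to 0.04, also with a median of -0.09. Ift22, a small GTPase of the IFT-B particle, was the only IFT gene among the members whose groups did not overlap. It had 377, 354 and 419 in siDNMT1 and 471, 506 and 467 in siNT. Its means were 383 ± 33.1 and 481 ± 21.7 (SD, n = 3), a difference of -0.33 (SE 0.15), with -0.31, -0.51 and -0.15 in the repeats. Ift46 had 370, 367 and 284 against 272, 398 and 338, a difference of 0.03 (SE 0.19). Ift27, another GTPase of the particle, had 297, 318 and 341 against 351, 387 and 307 on its brightest probe set, a difference of -0.12 (SE 0.16), beside 0.12 and 0.08 on the remaining ones. In IFT-A, Ift43 had 241, 269 and 169 against 237, 269 and 204, with a difference of -0.08 (SE 0.21), and Ift140 and Ift122 were at 0.04 and -0.10. All these groups overlapped apart from those of Ift22.

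No Bbs probe set had groups without overlap. The 9 in the fit ran from -0.42 to 0.03, with a median of -0.07. Bbs1 had 88.6, 102 and 87.7 in siDNMT1 against 98.5, 130 and 87.4 in siNT, a difference of -0.16 (SE 0.21). Bbs5 had 73.4, 86.4 and 62.3 against 97.3, 85.3 and 91.5, a difference of -0.29 (SE 0.20). Bbs9 had 65.3, 61.0 and 63.4 against 74.2, 44.3 and 71.9, a difference of 0.03 (SE 0.24). In each of these 3 BBSome genes the groups overlapped, and the repeats had no common sign.

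The 9 axonemal dynein probe sets in the fit ran from -0.71, that of the outer arm gene Dnah17, to 1.02. Dnaic2 had 189, 354 and 286 in siDNMT1 and 101, 210 and 193 in siNT, so that each siDNMT1 array exceeded its own control while the groups overlapped. The means were 277 ± 82.9 and 168 ± 58.9 (SD, n = 3), a difference of 0.73 (SE 0.30), with 0.88, 0.74 and 0.56 in the repeats. With the repeats as a block the SE was 0.15. Its other probe set was too dim for the fit, at 2.43, 3.12 and 3.30 against 15.2, 4.38 and 12.0. Dnah8, an outer arm heavy chain known from testis, had 42.5, 53.2 and 49.3 against 7.52, 28.5 and 36.7 on one probe set. Its siDNMT1 arrays were all above background and its siNT arrays all below, the difference was 1.02 (SE 0.41), and the repeats gave 1.90, 0.79 and 0.38. Without siNT array 1, the lowest, the difference was 0.50. The other Dnah8 probe set was at -0.12 (SE 0.43). Dnah1 had 161, 154 and 144 against 171, 230 and 170, a difference of -0.29 (SE 0.19) without overlap that was -0.15 without siNT array 2, and its second probe set stayed between 2.96 and 8.22 on all arrays. Dnaic1, the partner of Dnaic2, was at 0.12 (SE 0.27) on its brightest probe set and at -0.66 (SE 0.45) on the other. Dnah11, of the outer arm, was below background on all arrays, at 4.53, 8.82 and 12.7 against 19.8, 34.1 and 13.1.

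Rsph1, the radial spoke head gene, had siDNMT1 values close together. They were 70.9, 74.0 and 73.9, against 107, 123 and 146 in siNT, all above background and without overlap. The means were 72.9 ± 1.78 and 125 ± 19.8 (SD, n = 3), a difference of -0.73 (SE 0.20), with -0.56, -0.69 and -0.93 in the repeats. Its neighbours Tff1, Tmprss3 and Slc37a1 had differences of 0.18, 0.32 and 0.12, the first 2 without overlap. Tmprss3 was below background on all arrays. Pde9a, above background on 1 siNT array alone, had a difference of -1.10 (SE 0.44), also without overlap. Ubash3a, the nearest gene on one side, was too dim for the fit. Rsph9, of the same spoke head, had 144, 94.2 and 118 against 120, 118 and 144, a difference of -0.11 (SE 0.21) with overlapping groups. Rsph6a, a spoke gene of sperm, had 6.52, 43.1 and 10.9 against 52.2, 28.9 and 56.3. Its difference was -1.23 (SE 0.49), repeat 2 ran the opposite way to the others, and without siDNMT1 array 1 the difference was -0.82.

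Tektins, which form filaments along the doublets, stayed below background on all arrays. Tekt1 had 21.1, 31.3 and 35.7 against 37.5, 27.6 and 34.7, a difference of -0.17 (SE 0.29). Tekt3 was at 0.39 (SE 0.44), and Tekt4, too dim for the fit, had a difference of -0.01.

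The 23 Cfap probe sets in the fit ran from -1.07 to 1.43 with a median of 0.0. Cfap298 had 721, 873 and 721 in siDNMT1 and 657, 880 and 671 in siNT on its brightest probe set, a difference of 0.07 (SE 0.17). On its next brightest probe set it was at -0.23 (SE 0.16), with the siDNMT1 array lower in all 3 repeats, and on a dim one at 0.82 (SE 0.39), with signals of 19.7, 33.3 and 23.4 against 13.6, 9.40 and 12.9. Cfap20 had 393, 325 and 376 against 392, 394 and 421, a difference of -0.14 (SE 0.16). Cfap36 had 321, 390 and 173 against 406, 341 and 361, a difference of -0.39 (SE 0.26) in which siDNMT1 array 3 was the low one, and of -0.06 without it. Cfap61, a sperm flagellum gene, was at -1.07 (SE 0.47) on one probe set and at 0.03 (SE 0.39) on another. Cfap65 was the only Cfap gene above background in siNT with groups that did not overlap on its brightest probe set.

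Probe sets of one gene often differed in sign. Of the 15 member genes with at least 2 probe sets in the fit, 10 had probe sets of opposite sign. Some of these lay within their SE of 0, such as Cfap410 at -0.05 (SE 0.20) and 0.03 (SE 0.20). Over the 15 genes the span between probe sets of a gene had a median of 0.53 and was widest, 1.23, in Kif3b. Of all 117 probe sets 14 were of the x or s kind, whose oligonucleotides can bind several transcripts, among them the brightest of Dnaic2, Cfap298, Ift27 and Kif3b. Cfap65, Kif7, Rsph1 and Ift22 each had 1 probe set, so nothing on the array checks those values.

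**Figure D4:**
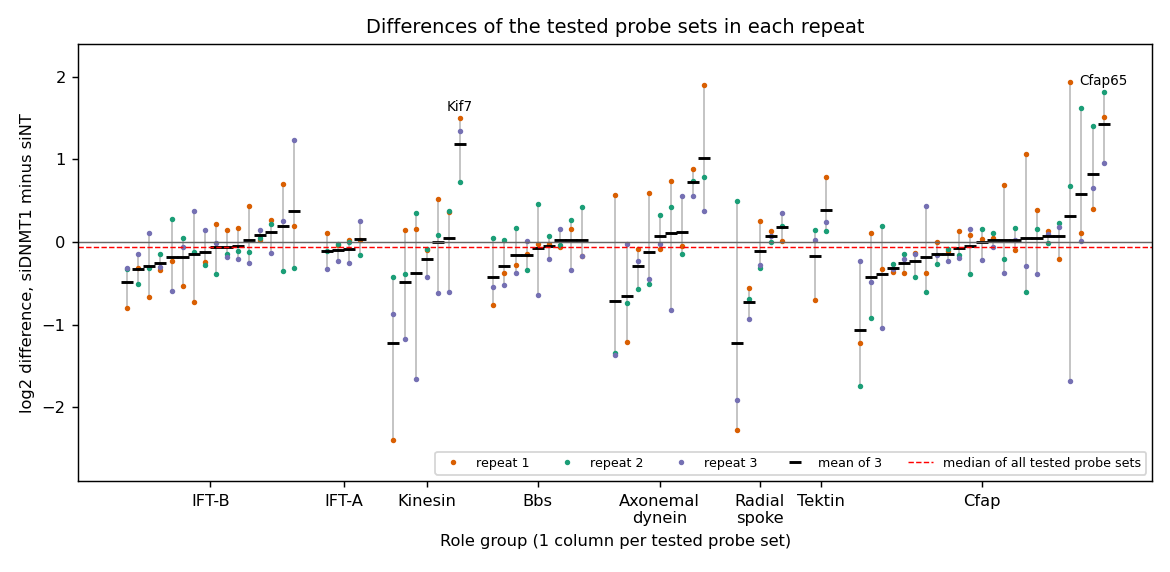
Difference siDNMT1 minus siNT of each of the 75 member probe sets in the fit, in log2(scaled signal + 5.29), grouped by role; coloured points are the 3 repeats, black bars their means, and the dashed line the median of all probe sets in the fit. The means run from -1.23 to 1.43, with 30 above and 45 below 0 and a median of -0.07.

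As a group the members lay where the array lay. Their median difference was -0.07 and that of all 27022 probe sets in the fit -0.06, with 30 of 75 above and 45 below 0 among the members, against 40.8% and 59.2% over all. Under trimmed mean scaling the members divided into 36 above and 38 below 0 with a median of -0.01, and all probe sets into 50.3% and 49.7%, so the excess of lower values depends on the scaling. The median size of a difference was 0.16 in the members and 0.17 over all. Within 0.5 of 0 lay 84.0% of the members and 89.4% of all.

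Counts past a threshold are given beside those of the whole array, and since the contrast was used in the choice of the members, nothing is read from them. In the limma fit without the repeats as a block, 0 members had an adjusted p under 0.05, and so had 0.0% of all probe sets; at an unadjusted p under 0.05 there were 8 members (10.7%), 4 higher and 4 lower, against 3.79% of all. With the repeats as a block 1 member, Cfap65, passed, against 0.0851% of all, and 9 (12.0%), 4 higher and 5 lower, had an unadjusted p under 0.05, against 7.83% of all. Groups did not overlap for 4 members higher in siDNMT1 (5.33%, against 2.96% of all) and 4 lower (5.33%, against 5.78% of all). The 4 higher were the probe sets given above of Cfap65, Kif7, Dnah8 and Cfap298, and the 4 lower those of Rsph1, Ift22, Dnah1 and Kif3b. Of the 42 dimmer probe sets, 1 of Cfap20dc was higher and those given of Dnah11 and Dnaic2 lower without overlap. Each of these stayed below background on all arrays. The share over all dimmer probe sets is not given, so nothing is read from them. On the deposited signals without scaling 3 members were higher and 0 lower, against 2.11% of all in both directions together. On those signals the repeat 2 arrays of both groups were brightest, with medians of 36.3 in siDNMT1 and 33.2 in siNT. Rsph1 and Ift22 still had differences of -0.70 and -0.30 without scaling. With a gap of at least 1.5-fold between the groups, Cfap65 and Kif7 were higher (2.67%, against 0.159% of all) and 0 members lower (0.181% of all). The sign was the same in 3 of 3 repeats for 9 members higher (12.0%, against 10.1% of all) and 14 lower (18.7%, against 19.2% of all).

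Genes that work with the members but bear other names were taken from 8 lists holding 165 genes, of which 146 were on the array, 72 above background in siNT and 116 in the fit. In neither limma fit did any of them have an adjusted p under 0.05, and 8 had an unadjusted p under 0.05 without the block and 12 with it, where the shares over all probe sets were 3.79% and 7.83%. The 8 were Tctex1d2, Unc119, Armc4, Dpcd, Ak1, Meig1, Rfx5 and Ulk4. Each listed gene stands here by its brightest probe set, while the shares over all count every probe set in the fit, so the units differ. Of the 116, 34 had higher and 82 lower values in siDNMT1, with a median of -0.12, that is 70.7% lower, against 59.2% of all probe sets. Under trimmed mean scaling they divided into 46 and 70, that is 60.3% lower, against 49.7% of all. Genes for axonemal dynein assembly and regulation had lower values in 15 of 16, with a median of -0.28, and in 14 of 16 under trimmed mean scaling. Only 7 genes of this list were above background in siNT, with differences from -0.38 in Ccdc103 to 0.10 in Dnaaf2. The lowest values, among them -0.83 in Ccdc40 and -0.71 in Dnali1, came from genes that were not above it. Armc4, a docking factor of the outer arm, was below background and at -1.18 (SE 0.51). Of 19 further IFT and IFT motor genes 17 had lower values, and 14 did under trimmed mean, quantile or no scaling. Tctex1d2, a light chain of the IFT dynein, had 484, 478 and 413 in siDNMT1 against 643, 599 and 580 in siNT, a difference of -0.40 (SE 0.15) without overlap. BBSome-related genes had lower values in 8 of 9 and transition zone genes, of the gate at the base of the cilium, in 13 of 15, and under trimmed mean scaling in 8 of 9 and 12 of 15. The basal body list had lower values in 12 of 18, with a median of -0.03 that turned to 0.03 under trimmed mean scaling. In it Unc119, a carrier of lipidated ciliary proteins, had 199, 164 and 218 against 313, 280 and 308, a difference of -0.63 (SE 0.18) without overlap. Central pair and other motile axoneme genes had higher values in 9 of 14. The smallest p in that list was that of Dpcd, at 593, 572 and 688 against 880, 817 and 805, a difference of -0.43 (SE 0.15) without overlap. Ak1, an adenylate kinase, at 0.59 (SE 0.22), and Meig1, a gene of spermatogenesis, at -0.67 (SE 0.26), had groups without overlap too.

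The last lists were the factors that switch ciliary genes on and the hedgehog pathway, to which Kif7 belongs. The transcription programme genes divided into 5 with higher and 6 with lower values, with a median of -0.05 that was 0.02 under quantile scaling. Rfx5, an RFX factor best known from MHC class II genes, was at 0.51 (SE 0.19), and Ulk4 at -0.57 (SE 0.21), both without overlap. Foxj1, the master factor of motile cilia, was below background on all arrays, at 12.2, 4.19 and 28.7 in siDNMT1 and 23.1, 18.2 and 39.3 in siNT. Rfx3, an X-box factor, was below background on its brightest probe set too, with a difference of -0.25 (SE 0.31). Among 14 hedgehog genes, 8 were at higher and 6 at lower values in siDNMT1 (median 0.02). The largest difference of the list was that of Dhh, 1.09 (SE 0.52), which was below background on all arrays. Its signals were 25.1, 15.0 and 42.4 in siDNMT1 and 4.57, 6.37 and 21.0 in siNT, with overlapping groups. The targets Ptch1, at 69.5, 91.4 and 72.8 against 66.3, 101 and 64.8, and Gli1, below background, had differences of 0.03 (SE 0.23) and -0.60 (SE 0.42).

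Markers of cells that carry motile cilia or flagella were set beside these values. Of 9 listed multiciliated cell markers 6 were on the array and 1, Ccno, was above background in siNT; their summed scaled signal was 150 to 194 in siNT and 123 to 165 in siDNMT1. Of 10 male germ cell markers 0 were above background in either group, with sums of 145 to 172 in siNT and 114 to 143 in siDNMT1. No marker was listed at 0. Most of these signals lay at the background level, so the sums set no level for either cell type. Prm2, with means of 23.2 in siDNMT1 and 50.8 in siNT, was the 1 germ cell marker whose groups did not overlap. A change in the make-up of the cultures was not tested. Of markers of other pituitary cells, fibroblasts and leukocytes, 0 of 6, 1 of 7 and 2 of 5 on the array were above background in siNT. In the same order their sums were 114 to 219, 133 to 176 and 214 to 340 in siNT. In siDNMT1 they were 116 to 195, 162 to 202 and 240 to 274. The corticotroph sum was 10100 to 13700 in siNT and 8650 to 13600 in siDNMT1.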

How the data were processed

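Transcript abundance of 6 AtT-20 cultures, 3 siDNMT1 and 3 siNT, was analysed on 1 array each. The deposited intensity of each probe set is linear and was made by the authors with GCOS, per the submitters' processing notes; the sources used here do not name its version or settings, and no detection calls were used. Arrays were scaled to the same median log2 value, since their deposited 2% trimmed means differed (the highest was 99.8% above the lowest). Log2 values used a pseudocount of 5.29, the 20th percentile of deposited values, and probe sets below the 40th percentile of mean scaled signal, 16.8, were left out of the fit. siDNMT1 was compared with siNT by limma 3.58.1 in R 4.3.3 (lmFit, eBayes with trend, two-sided) over 27022 probe sets with the Benjamini-Hochberg adjustment and a threshold of 0.05, without the repeat as a block. The fit was tested on simulated data. After subtraction of the group mean, arrays of one repeat correlated at 0.173, 0.231 and 0.257 over probe sets. siDNMT1 and siNT arrays of different repeats correlated at -0.179 to -0.0283, values that the subtraction itself lowers. The repeats described in the labels were taken to pair the arrays, and counts with the block stand beside those without it.

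Symbols came from the platform annotation; all 117 member probe sets matched a gene ID of the GRCm38.p6 gene table, which changed 0 symbols, and 2 probe sets with several symbols were left out. The brightest probe set stood for a gene in the background count and in the lists. Named members were Cfap65 and Kif7, any member past the threshold in either fit, up to 8 in each direction whose brightest probe set had groups without overlap, and up to 3 with the highest control signals in each role; of each other list, up to 4 with the smallest unadjusted p, and Foxj1, Rfx3, Gli1 and Ptch1. Further probe sets and genes were named after their values were seen. Members and lists were chosen with earlier results of these data known. Alternatives changed the scaling, pseudocount, filter, variance trend, background percentile, probe sets and arrays used.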

Additional observations from a re-analysis of the deposited data

How the results depend on the processing

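The difference of Cfap65 ran from 1.21 to 1.67 over its 22 alternatives. That of Kif7 ran from 0.81 with a pseudocount of 16 to 1.48 with a pseudocount of 1, over the 21 that gave it a value. Both genes drew attention by being high in siDNMT1 in this same contrast. Their groups did not overlap, so a left-out array or another pseudocount could not turn the sign, and nothing is read from its constancy. The median of the members lay between -0.13 and 0.0. The count of members past the threshold was 0 without the block. With the replicate block it was 1 (Cfap65), and 1 with the replicate block and no scaling, but 0 with the replicate block and trimmed mean or quantile scaling. With the replicate block and 1 repeat left out it was 1 to 3: without repeat 3 it was 3 and included Dnaic2 and Kif3b. Shares of all probe sets past the threshold are not given for these alternatives, so nothing about the members is read from the counts. Counts of groups without overlap were 8, 3 without scaling (3 higher and 0 lower) and 2 with a gap of 1.5-fold. The count of 27 genes above background was 31 and 22 with the 90th and 99th percentile, 24 with the median over probe sets and 28 to 31 with 1 siNT array left out. Leaving out 1 array moved Dnaic2 between 0.40 and 0.97, with 0.40 without siNT array 1, and Dnah8 between 0.50 and 1.36, with 0.50 without the same array. The small differences of Bbs9, Cfap298, Dnaic1, Ift46, Kif3a, Kif3b, Rsph9 and Tekt1 on their brightest probe sets changed sign under at least 1 alternative. The causes were not tested. Signals at the background level, 34 of 73 genes on every siNT array, set no level for those genes, and 3 arrays per group limit the rest. The alternatives that combine the block with a scaling or a left-out repeat were chosen after the data were seen.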
